A study of Mus musculus with 9 samples.

Results

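Genes named Zfp followed by a number encode zinc finger proteins, and their open chromatin was followed here in mouse mesenchymal progenitor cells (MPCs) with and without ATRX. Peaks of open chromatin from 9 ATAC-seq libraries were merged where they overlapped or touched on chromosomes 1 to 19, and merged regions with a peak in 2 or 3 of the libraries of at least 1 line form the consensus set. Of the 95142 consensus regions, 664 overlapped the body of a protein-coding Zfp gene or the 2 kb on either side of it. They belonged to 318 of the 357 Zfp genes in the annotation, and 1 further such gene was set aside by the rule. A region was classed as a promoter when it overlapped the 1 kb on either side of a transcript start of the Zfp gene (330 regions), and otherwise as a last-exon region when it overlapped the last exon of the main transcript (27 regions), as a region of the rest of the gene body (258), or as a flank (49). The rule used names, positions and the presence of peaks, and set no condition on a difference between lines. A region could still enter the set through 1 line only, which bears on counts per line.

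The cells were C3H/10T1/2, an established mouse line used as a model of MPCs. The 3 lines were *Atrx* wild-type (WT) control cells, which had received a Cas9 vector with no guide, and 2 clones with a knockout (KO) of *Atrx*, named B10 and G7, with 3 libraries each. Each KO line is 1 clone grown from a single sorted cell after Cas9 editing, 2 guides were used in the study, and the guide behind each clone is not given in the sources used here, so the loss of *Atrx* and the own history of a clone cannot be told apart within 1 line. WT is also 1 line, shared by both comparisons, so a trait of that line alone would look like a change in both clones. Nothing in the labels says that the 3 libraries of a line came from separate cultures, so p-values measure the spread between libraries, which may be technical. The lists held 74643 to 86650 peaks per library, with no read counts, so the depth is unknown, and an absent peak can be one just below the caller's threshold. Of 11 promoters fixed as mesenchymal markers, 10 had a peak in every library, among them *Col1a1*, *Twist2* and *Pdgfra*, and *Thy1* had none. Of 12 markers of other cell types, 2 to 3 had a peak in a library, among them the endothelial marker *Pecam1* and the neuronal marker *Tubb3*, and 9 had no promoter region, *Ptprc*, *Epcam* and *Myod1* included.

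Most Zfp proteins bind DNA through tandem C2H2 zinc fingers, short modules that each hold a zinc ion and read a few bases, joined by a conserved linker of the amino acids HTGEKP. Many carry a KRAB domain, which recruits the co-repressor TRIM28 and the methyltransferase SETDB1 and so places H3K9me3 on the DNA they bind, often on transposable elements. Zfp genes are themselves unusual chromatin, since the last exon that encodes the finger array is known to carry H3K9me3 while the promoter is open, and ATRX is known to bind these 3′ exons and to help keep the mark there. Of the 357 genes, 342 encoded at least 1 C2H2 pattern in the annotated protein, with a median of 10.0 and a maximum of 33, and 197 encoded a KRAB pattern. Those with the KRAB pattern had a median of 12 fingers, against 7.50 in the others. A name is no guarantee of the fold. *Zfp36*, for example, encodes an RNA-binding protein with another kind of zinc finger.

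The finger array also leaves a recognisable DNA sequence. The linker HTGEKP is encoded by CANACNGGNGANAANCC, where N is any base, which was searched on both strands and counted where it translates to that peptide. It was found in the last exon of 248 of the 357 Zfp genes. In the consensus regions it was rare, in 34 of 95142 (0.0357%), while 9 of the 27 last-exon regions of Zfp genes held it (33.3%) against 2 of 1834 last-exon regions of other genes (0.109%). Among other genes with 5 or more C2H2 patterns, 2 of 11 last-exon regions held it (18.2%), so the linker is not particular to genes named Zfp. In the last-exon class, 3 regions open in both clones and in no WT library had the strongest summit inside the coding sequence, and the 240 bases around that summit are shown to let the repeat be seen. They are on the strand of the gene, from mm10, which is GRCm38, with each full linker in capitals.
Zfp558, chr9:18456509-18456748, minus strand: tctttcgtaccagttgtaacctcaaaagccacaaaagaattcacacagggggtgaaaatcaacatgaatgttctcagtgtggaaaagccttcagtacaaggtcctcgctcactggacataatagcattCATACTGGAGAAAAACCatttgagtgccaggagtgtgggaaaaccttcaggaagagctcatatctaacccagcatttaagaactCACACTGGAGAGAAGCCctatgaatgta
Zfp930, chr8:69228359-69228598, plus strand: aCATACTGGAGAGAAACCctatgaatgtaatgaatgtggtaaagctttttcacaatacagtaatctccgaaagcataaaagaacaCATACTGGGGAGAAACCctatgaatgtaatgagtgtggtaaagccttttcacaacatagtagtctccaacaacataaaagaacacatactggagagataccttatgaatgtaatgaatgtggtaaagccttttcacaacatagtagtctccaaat
Zfp316, chr5:143253598-143253837, minus strand: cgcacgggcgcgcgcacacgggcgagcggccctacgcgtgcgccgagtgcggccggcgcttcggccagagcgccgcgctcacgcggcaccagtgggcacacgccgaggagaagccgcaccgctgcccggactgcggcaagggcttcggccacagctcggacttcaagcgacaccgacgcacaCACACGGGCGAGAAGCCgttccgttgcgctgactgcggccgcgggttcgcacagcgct
The windows of *Zfp558* and *Zfp930* held 2 full linkers each and that of *Zfp316* held 1, and the whole regions held 5, 5 and 3. These arrays are repeated within a gene and between genes, and reads that match near-identical copies could have been placed at another copy or dropped. In *Zfp930* 80.9% of the region was soft-masked as repeat in the reference, against 19.7% in *Zfp558* and 0% in *Zfp316*, and the share of reads lost in this way was not tested.

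Promoters of Zfp genes whose peak was present in 1 genotype only carry no such array. RefSeq windows of 250 bases before to 50 after the start were matched by symbol for 302 of the 357 genes, and for 3 of the 6 genes with a promoter region gained or lost in both clones. These 3 lay wholly in their region and are shown on the strand of the gene (GRCm38.p6) because the peak over them was absent from all libraries of 1 genotype. Capitals mark the letters ATTGG, the complement of the CCAAT box read by NFY.
Zfp985, chr4:147553027-147553326, plus strand: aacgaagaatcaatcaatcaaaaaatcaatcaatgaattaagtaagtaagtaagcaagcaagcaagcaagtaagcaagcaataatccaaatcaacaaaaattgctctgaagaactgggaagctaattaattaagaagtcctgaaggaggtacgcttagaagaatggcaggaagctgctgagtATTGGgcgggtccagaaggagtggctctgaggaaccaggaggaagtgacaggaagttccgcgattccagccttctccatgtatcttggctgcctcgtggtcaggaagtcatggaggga
Zfp850, chr7:28014066-28014365, minus strand: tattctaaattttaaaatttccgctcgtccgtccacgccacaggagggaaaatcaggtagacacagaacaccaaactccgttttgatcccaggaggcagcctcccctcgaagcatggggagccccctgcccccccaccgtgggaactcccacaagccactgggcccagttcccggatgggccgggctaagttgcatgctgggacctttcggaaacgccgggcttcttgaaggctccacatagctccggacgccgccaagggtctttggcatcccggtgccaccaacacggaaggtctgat
Zfp2, chr11:50916127-50916426, minus strand: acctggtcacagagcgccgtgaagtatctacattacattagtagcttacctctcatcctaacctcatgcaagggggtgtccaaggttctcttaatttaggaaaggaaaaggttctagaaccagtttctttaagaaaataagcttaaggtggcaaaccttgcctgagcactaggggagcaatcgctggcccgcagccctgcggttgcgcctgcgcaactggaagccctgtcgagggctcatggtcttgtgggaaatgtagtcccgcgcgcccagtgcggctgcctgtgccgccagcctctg
The motifs searched on both strands were CCAAT (NFY), CCGGAAG (ETS factors), GGGGCGGGG (SP factors), TGANTCA (AP-1), TGACGTCA (CREB), AAGATGGCG (YY1) and GCGCATGCG (NRF1). The *Zfp985* window held the CCAAT letters, as did 48.2% of the 363 windows of Zfp genes and 37.3% of the windows of all genes, and the windows of *Zfp850* and *Zfp2* held none of the 7. The ETS letters stood in 22.3% of Zfp windows and in 2827 of all 31396 windows, the AP-1 letters in 3.58% and 7.84%, the SP letters in 10.5% and 11.6%, the NRF1 letters in 4.13% and 1.74%, the CREB letters in 3.58% and 1.83%, and the YY1 letters in 2.75% and 1.39%. These shares describe the sequence and say nothing on binding.

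Promoters of Zfp genes were open in these cells whatever the line. A promoter region was present for 303 of the 357 genes (84.9%), against 12372 of 20365 other protein-coding genes (60.8%). The share was 83.2% for the 197 genes with a KRAB pattern and 86.9% for the other 160. Of the 330 promoter regions, 302 were open in every library (91.5%), against 82.9% of promoter regions of other genes. The WT libraries had 315, 317 and 316 of them, the B10 libraries 311, 315 and 313, and the G7 libraries 324, 322 and 322. The mean was 316 ± 1.0 (SD, n = 3) in WT, 313 ± 2.0 in B10 and 323 ± 1.15 in G7, so that G7 lay above the other lines and B10 overlapped WT at 315. Last exons were the reverse. Only 30 of the 357 genes (8.40%) had any consensus region in the last exon, against 12.1% of other genes, and 8 of the 27 last-exon regions were open in all 9 libraries (29.6%), against 917 of the 1834 of other genes.

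Last exons of Zfp genes had more peaks in the libraries of the clones than in those of WT. Of the 27 last-exon regions, 11 met the rule for the consensus set in WT and in a clone, 1 in WT only and 15 in a clone only, 13 of them with no WT peak, so counts over the 27 are lower in WT by their selection and are given as a description. The WT libraries held a peak in 11, 11 and 13 of the 27 regions, the B10 libraries in 17, 22 and 19, and the G7 libraries in 17, 22 and 22. The means were 11.7 ± 1.15 (SD, n = 3) in WT, 19.3 ± 2.52 in B10 and 20.3 ± 2.89 in G7. With no such rule, over all 42 merged regions of this class with a peak in any library, the WT libraries had a peak in 14, 13 and 13, the B10 libraries in 21, 25 and 20, and the G7 libraries in 21, 22 and 23. The KO libraries lay above the WT libraries there too. Counted in the same way, last exons of other genes had 1457 to 1553 peaks in WT, 1514 to 1681 in B10 and 1513 to 1560 in G7, which overlap. As a share of the consensus members, 40.7% to 48.1% of the regions had a peak in the WT libraries and 63.0% to 81.5% in those of each clone. Last exons of other genes went from 75.0% to 77.4% in WT to 78.2% to 84.0% in B10 and 77.7% to 78.4% in G7. The whole set of consensus regions went from 74.7% to 76.2% in WT to 78.1% to 82.7% in B10 and 74.1% to 75.7% in G7. The rest of the gene body had a peak in 185 to 189 of 258 regions in WT, in 201 to 213 in B10 and in 196 to 203 in G7, and the flanks overlapped between lines at 28 to 37, 35 to 40 and 35 to 37 of 49.

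**Figure D1:**
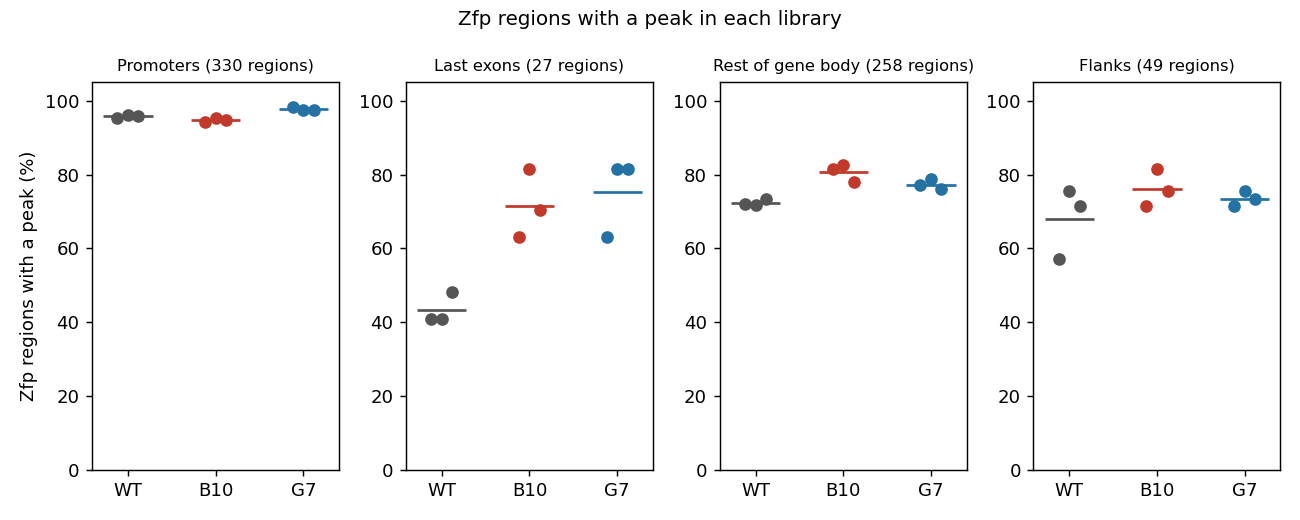
Share of Zfp regions with a peak (y axis, %) in each library of WT, B10 and G7 (points, 3 a line) with the mean of the line (bar), for promoters, last exons, the rest of the gene body and flanks. The last-exon panel has the WT libraries at 40.7% to 48.1% and all KO libraries at 63.0% or more, over regions of which 13 entered the set through a clone with no WT peak, while promoters sit between 94.2% and 98.2%.

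Gained regions were those with a peak in 2 or 3 libraries of the clone and in no WT library, and lost regions those with a peak in 2 or 3 WT libraries and in none of the clone. Of the 664 Zfp regions, 50 were gained in B10 (10.4% of all consensus regions were) and 25 were lost (7.59% of all). In G7, 40 were gained (5.61% of all) and 25 lost (7.43% of all). Called the same way in both clones were 21 gained (3.16%, against 2.93% of all) and 12 lost (1.81%, against 4.37% of all). The WT libraries are shared by the 2 comparisons. The gained share over all Zfp regions was thus near the background and uneven over the classes, whose difference was not tested. Of the 27 last-exon regions, 9 were gained in B10, 10 in G7 and 6 in both clones (22.2%), where 2.78% of the 1834 last-exon regions of other genes were gained in both. Lost in B10, G7 and both were 2, 2 and 1 of them (3.70% in both, against 3.33% for other genes). Other genes with 5 or more C2H2 patterns had only 11 last-exon regions. Of these, 3 were gained in B10 (27.3%, against 33.3% for Zfp genes), 0 in G7 (against 37.0%) and 0 in both, and 0, 1 and 0 were lost. Of the 330 promoters, 4 were gained and 2 lost in both clones (1.21% and 0.606%), against 1.22% and 1.94% of other genes' promoters. In the rest of the body 9 of 258 were gained and 8 lost in both, and in the flanks 2 and 1 of 49. The 6 last-exon gains rest on few regions. With peaks thinned to an equal number per library the count was 4 (16.7%, against 2.75% of all consensus regions). Among peaks of −log10 q 5 or more it was 3 (15.0%, against 2.72%).

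**Figure D2:**
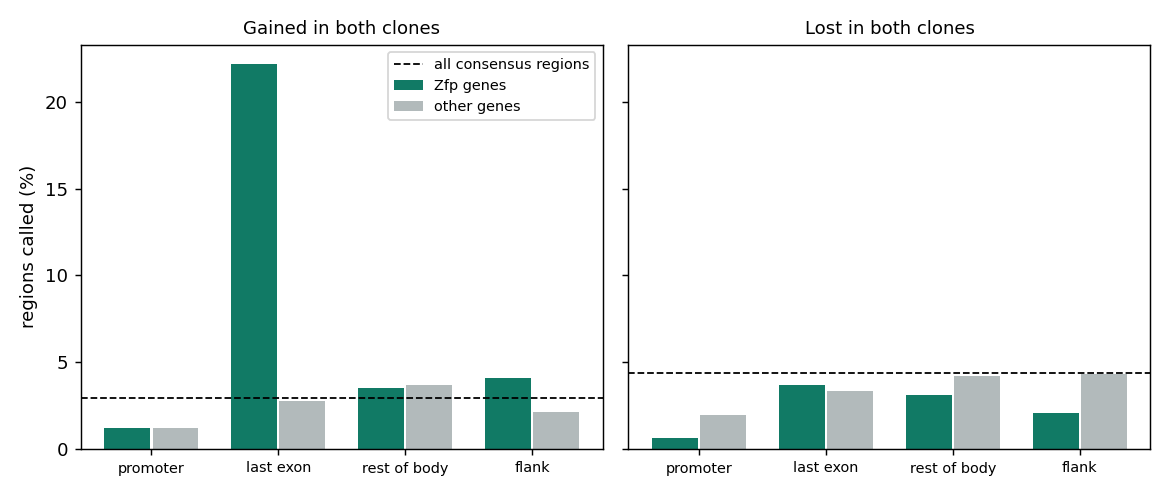
Share of regions (y axis, %) gained (left) or lost (right) in both clones, for Zfp genes (green) and other protein-coding genes (grey) in 4 classes, with the share over all consensus regions as a dashed line. The bar of Zfp last exons among gained regions stands at 22.2%, the dashed line there at 2.93%, and no other Zfp bar exceeds 4.08%.

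Of the 6 last exons gained in both clones, 5 belonged to genes with a KRAB pattern. Values are given as the percentile rank of the peak within its library by −log10 q, where 100 is the strongest. The region of *Zfp558* (chr9:18456279-18456987), which encodes 9 C2H2 patterns, had no peak in the WT libraries and ranks of 64.1, 50.7 and 35.6 in the B10 libraries and of 68.5, 54.0 and 58.0 in the G7 libraries. Its fold enrichment was 7.78 to 12.9 in the 6 KO libraries. It was the only last-exon gain with a peak in all 6 KO libraries. The region of *Zfp316* (chr5:143253071-143255230), with 14 patterns, ranked 24.9 and 24.0 in B10 replicates 2 and 3 and 26.9, 27.6 and 35.2 in G7. The region of *Zfp930* (chr8:69228199-69228851), with 12, ranked low, at 7.02, 11.8 and 11.9 in B10 and 8.67 and 11.5 in G7 replicates 2 and 3. In these 3 regions the strongest summit lay in the coding part of the finger exon.

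The other 3 had their summit in the untranslated part of the last exon, and no linker in the region. *Zfp773* (chr7:7130365-7131100) ranked 35.5, 24.9 and 17.5 in B10 and 19.2 and 8.73 in G7 replicates 1 and 3. *Zfp975* (chr7:42660024-42660390) ranked 6.07 and 8.95 in B10 replicates 2 and 3 and 5.92 and 16.8 in the same replicates of G7, near the bottom of each list. *Zfp706* (chr15:36998493-36998938), a small protein with 1 C2H2 pattern and no KRAB pattern, ranked 33.1 and 36.4 in B10 replicates 2 and 3 and 29.1, 24.1 and 21.8 in G7. Replicate 1 of a KO line was the missing library in 5 of the 6 cases in which B10 or G7 had 2 peaks, and G7 replicate 2 in the other. The 1 last exon lost in both clones, that of *Zfp641* (chr15:98287952-98288703), ranked 9.68 and 8.25 in WT replicates 2 and 3, and is thus a weak peak that was absent from the KO lists.

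Consensus regions that hold the linker were followed across libraries. Of the 34, 10 were Zfp regions, 9 in last exons and 1 in the body of *Zfp91*. The WT libraries had a peak in 2, 3 and 3 of these 10, the B10 libraries in 5, 8 and 8, and the G7 libraries in 5, 8 and 8. Of these 10, 7 entered the consensus set through a clone only, which lowers the WT counts by selection. Over the 12 linker-bearing Zfp regions with a peak in any library, the counts were 3 in each WT library, 5, 8 and 8 in B10 and 5, 8 and 9 in G7. The other 24 regions had 14, 17 and 16 in WT, 15, 18 and 21 in B10 and 16, 19 and 22 in G7. Besides the regions above, the linker stood in last-exon regions of *Zfp697* and *Zfp560*, each gained in G7, of *Zfp961*, gained in B10, and of *Zfp266*, with a peak in WT replicate 3 and all 6 KO libraries. The *Zfp641* region, the 1 lost in both clones, held 1 linker as well. Last-exon regions that were weak or absent in WT also included *Zfp26*, gained in B10 with ranks of 3.95, 8.90 and 3.60 and at 11.4 in G7 replicate 2. The last exon of *Zfp169* went another way in the clones, since it ranked 20.4, 29.8 and 37.8 in WT and 13.1, 34.8 and 22.5 in G7 and had no peak in B10.

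**Figure D3:**
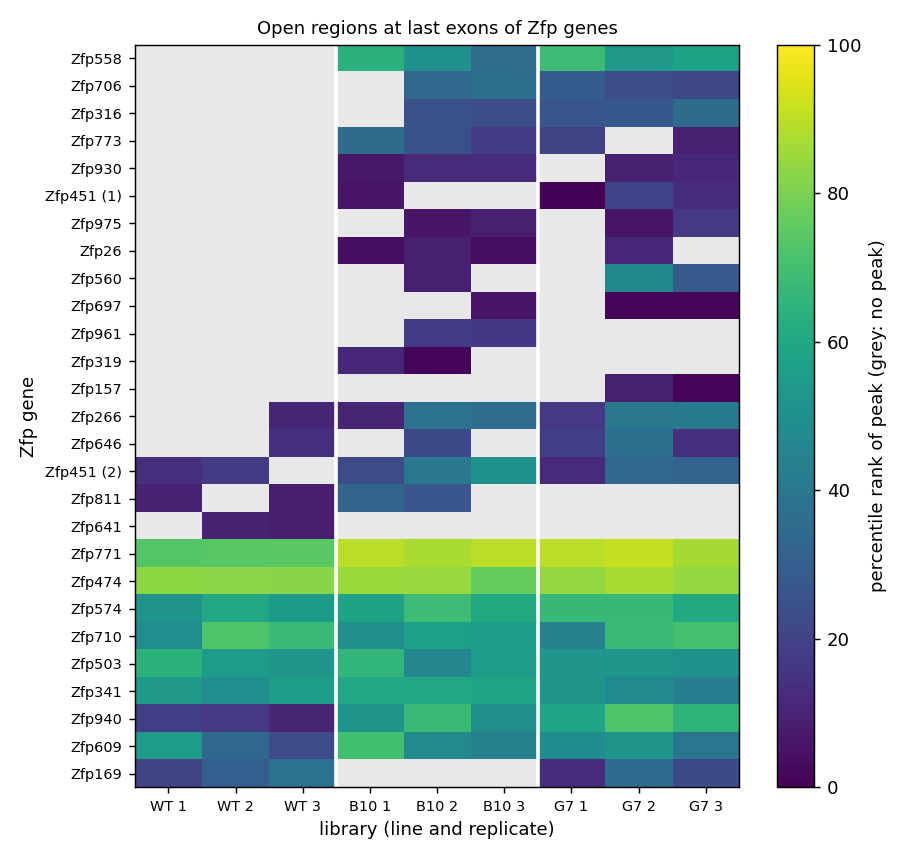
Percentile rank of the peak (colour, 0 to 100, grey where the library has none) at the 27 last-exon regions of Zfp genes (rows) in the 9 libraries (columns), ordered by the number of WT libraries with a peak. The upper 13 rows have no WT peak, and *Zfp451* has 2 regions in its last exon.

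Last exons open in all 9 libraries were compared by fold enrichment, the ratio of signal to background at the summit. The log2 value of the strongest peak was centred on its library's median over the 46449 regions open in all 9 libraries and tested with limma, with Benjamini-Hochberg adjustment over all of them. The last-exon region of *Zfp940* (chr7:29844351-29845123), a KRAB gene with 10 patterns, had a fold enrichment of 5.21, 5.24 and 4.46 in WT, 9.91, 11.9 and 9.63 in B10 and 10.7, 13.5 and 11.9 in G7. The groups did not overlap. The log2 difference from WT was 1.09 ± 0.14 (SE, adjusted p = 0.00257) in B10 and 1.37 ± 0.14 (adjusted p = 0.00297) in G7, and its ranks rose from 10.8 to 18.6 in WT to 49.6 to 72.3 in the KO libraries. The summit lay in the untranslated part of the exon. The other 264 regions within 5 Mb had a median difference of 0.03 in each clone.

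*Zfp771* (chr7:127253856-127254894), whose region holds 3 linkers in the coding part of the exon, was the most open of the linker-bearing last exons. Its fold enrichment was 14.5, 15.8 and 16.1 in WT, 19.7, 18.9 and 18.8 in B10 and 19.7, 18.3 and 16.3 in G7. The log2 difference was 0.33 ± 0.08 (adjusted p = 0.0329) in B10 and 0.32 ± 0.08 (adjusted p = 0.059) in G7, where it passed with the replicate number as a block (adjusted p = 0.0365). The other strong last-exon regions differed by less than the test could separate. *Zfp341* had log2 differences of 0.16 ± 0.10 and −0.08 ± 0.10 in B10 and G7, *Zfp574* of 0.13 ± 0.13 and 0.20 ± 0.13, and *Zfp710* of −0.29 ± 0.26 and −0.14 ± 0.26. *Zfp474*, at ranks of 76.4 to 87.3 over the 9 libraries, had 0.07 ± 0.14 and 0.02 ± 0.14. None of these had its strongest summit in the coding part of the last exon. It lay outside the gene at *Zfp341*, in another exon at *Zfp574*, and in the untranslated part of the last exon at *Zfp710* and *Zfp474*.

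Over the 454 Zfp regions open in all 9 libraries, 10 were higher (3.54% of all regions tested were) and 5 lower (3.05% of all) in B10, and 6 were higher (1.55% of all) and 7 lower (1.20% of all) in G7. Past the threshold in both clones were 5 higher (1.10%, against 1.07% of all) and 2 lower (0.441%, against 0.508% of all), shares close to the background. The median log2 difference was 0.077 in B10 and 0.065 in G7, against 0.031 and 0.025 over all regions tested. With the replicate number as a block the counts were 40 higher and 15 lower in B10, 23 and 11 in G7, and 11 and 5 in both clones. The block raised the counts over all 46449 regions tested too. These were 4344 higher and 3486 lower in B10, 2245 and 1728 in G7, and 1535 and 825 in both clones. No Zfp region passed in limma when replicate 2 or replicate 3 was left out of every line, which leaves 2 libraries a line, and 47 and 46 then had an unadjusted p below 0.05 in B10 and 37 and 33 in G7.

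Promoters past the threshold in both clones were *Zfp334*, *Zfp617* with *Zfp882*, and *Zfp35*. The *Zfp334* promoter (chr2:165387797-165388456), of a KRAB gene with 14 patterns, had a fold enrichment of 11.6, 7.87 and 8.33 in WT, 17.7, 16.7 and 15.2 in B10 and 19.7, 17.4 and 19.3 in G7. Its log2 difference was 0.87 ± 0.14 (adjusted p = 0.00789) in B10 and 1.13 ± 0.14 (adjusted p = 0.00457) in G7. The groups did not overlap. By percentile rank the B10 difference had an adjusted p of 0.0824. The promoter that the KRAB genes *Zfp617* and *Zfp882* share (chr8:71907887-71909241) went from 13.8 to 14.7 in WT to 16.7 to 17.2 in B10 and 15.4 to 16.6 in G7, a log2 difference of 0.27 ± 0.06 (adjusted p = 0.0246) and 0.26 ± 0.06 (adjusted p = 0.0469), which did not overlap either but was small. Other regions within 5 Mb had a median of 0.08 and 0.06 there. By percentile rank this promoter differed by −0.28 points in B10 (adjusted p = 0.854). The *Zfp35* promoter (chr18:23989166-23990094), of a gene with 17 patterns and no KRAB pattern, fell from 19.9, 20 and 20.9 in WT to 15.3, 17.3 and 16.7 in B10 and 13.9, 13.1 and 13.8 in G7, with log2 differences of −0.29 ± 0.06 (adjusted p = 0.0178) and −0.48 ± 0.06 (adjusted p = 0.00408). By percentile rank neither clone passed there (adjusted p = 0.752 and 0.201).

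Intronic regions passed at *Zfp944*, *Zfp609* and *Zfp64*. That of the KRAB gene *Zfp944* (chr17:22352909-22353365) had a fold enrichment of 9.44, 9.31 and 9.23 in WT, 15.1, 18.2 and 18.2 in B10 and 20.6, 16.3 and 16.1 in G7. The log2 difference was 0.89 ± 0.10 (adjusted p = 0.00178) in B10 and 1.0 ± 0.10 (adjusted p = 0.00297) in G7. That of *Zfp609* (chr9:65812203-65813388), a large gene with 1 pattern, rose from 9.24, 7.27 and 7.96 in WT to 15.1, 16.2 and 13.5 in B10 and 12.9, 14.3 and 11.7 in G7, by 0.89 ± 0.13 (adjusted p = 0.00378) and 0.77 ± 0.13 (adjusted p = 0.0128). That of *Zfp64* (chr2:168903955-168905028) fell from 15.3, 15.8 and 14.5 in WT to 11.5, 11.1 and 10.7 in B10 and 9.87, 8.13 and 8.83 in G7, with log2 differences of −0.44 ± 0.10 (adjusted p = 0.0278) and −0.67 ± 0.10 (adjusted p = 0.0077). In all 3 the KO libraries lay clear of the WT libraries. With any 1 of the 9 libraries left out, *Zfp940*, *Zfp334* and *Zfp944* passed in both clones each time. *Zfp609* missed the threshold in G7 in 2 of the 9 fits (without WT replicate 3 or G7 replicate 2), and *Zfp64* and *Zfp35* in B10 in 5 and 2 of the 9. *Zfp617* with *Zfp882* missed it in 5 of the 9 in B10 and in all 9 in G7, with an adjusted p of up to 0.153, and *Zfp771* in 6 of the 9 in B10.

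**Figure D4:**
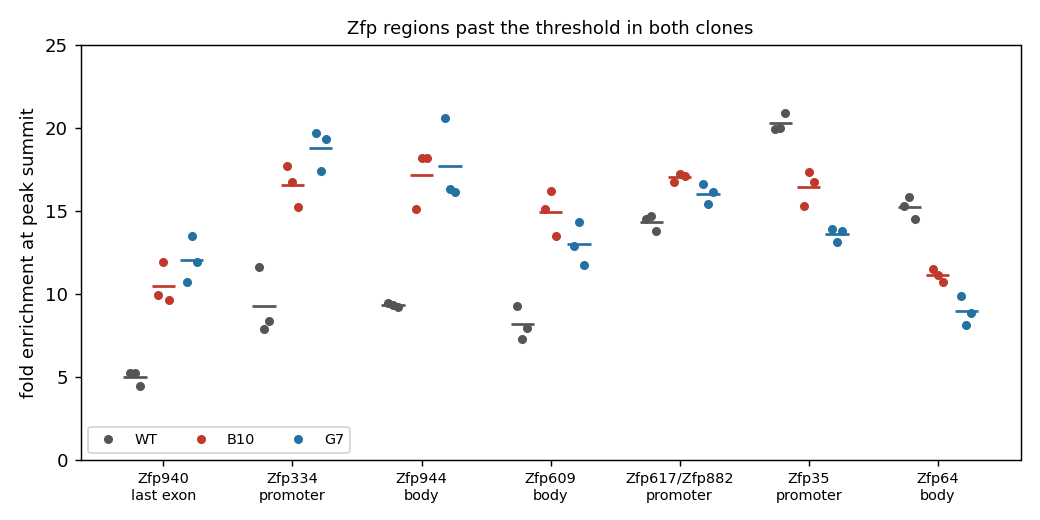
Fold enrichment at the summit (y axis, ratio) in each library of WT, B10 and G7 (points, 3 a line) with the mean of the line (bar), for the 7 Zfp regions that passed in both clones. The 5 regions on the left rise, *Zfp940* from 5.24 or less in WT to 9.63 or more in the KO libraries, and *Zfp35* and *Zfp64* fall.

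Promoter regions gained in both clones belonged to *Zfp647*, *Zfp2*, *Zfp850* and *Zfp410*. *Zfp647* (chr15:76925020-76926178), a KRAB gene with 13 patterns, had no WT peak and ranked 72.7, 71.5 and 68.9 in B10 and 62.1, 59.2 and 54.1 in G7, with fold enrichments of 10.0 to 10.6 and 7.37 to 8.12. *Zfp2* (chr11:50915665-50916432) was weaker in B10, at ranks of 43.9, 29.4 and 35.6, than in G7, at 80.9, 73.9 and 74.0, and its fold enrichment was 6.46 to 8.41 in B10 and 16.4 to 20.7 in G7, with no overlap. *Zfp850* (chr7:28013741-28014558), also a KRAB gene, ranked 19.5, 11.8 and 29.6 in B10 and 32.2, 36.1 and 32.5 in G7. *Zfp410* (chr12:84327053-84327581), which encodes an activator of the chromatin remodeller gene *Chd4*, ranked 42.2, 31.6 and 25.1 in B10 and 23.9 and 5.92 in G7 replicates 1 and 2. The first 3 had a peak in all 6 KO libraries.

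Promoter regions lost in both clones were those of the KRAB genes *Zfp989* and *Zfp985*, which lie in the same array of Zfp genes on chromosome 4. *Zfp989* (chr4:146971632-146972342) ranked 69.6, 64.2 and 65.9 in WT, with fold enrichments of 17.2 to 17.9, and *Zfp985* (chr4:147552861-147553657) ranked 62.8, 57.1 and 52.6, with 12.4 to 14.6. Neither had a peak in any KO library. The array from *Zfp990* to *Zfp933* (chr4:145510759-147848366) holds 18 Zfp genes and 8 Zfp regions, of which 3 were lost and none gained in both clones, the other being a weak intronic region of *Zfp987*. Peaks were present in 7, 7 and 7 of the 8 regions in WT, in 2, 2 and 4 in B10 and in 3, 4 and 4 in G7. The array is described because of its losses, and 4 of its 8 regions entered the consensus set through WT only, so the gap is a description and rests in part on that selection. The *Zfp990* promoter ranked 23.9, 33.5 and 34.2 in WT, 1.46 in B10 replicate 3 and had no peak in the other KO libraries. The *Zfp981* promoter was lost in B10 alone, with ranks of 74.4, 64.7 and 60.4 in WT and of 61.4, 52.6 and 45.2 in G7.

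Other parts of the array were open in every line. The promoters of *Zfp984* and *Zfp933*, at its distal end, had a peak in all 9 libraries at ranks of 50.1 to 64.1 and 73.9 to 79.5. Its 5 regions outside Zfp genes had a peak in 3, 3 and 3 in WT, 1, 3 and 3 in B10 and 3, 5 and 5 in G7, and none was lost in both clones. The 333 other regions open in all 9 libraries within 5 Mb of it had a median log2 difference of 0.03 in B10 and 0.02 in G7. Genes of such arrays are often near copies of each other, so a loss at 1 promoter and a change in where reads were placed cannot be told apart from peak lists.

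**Figure D5:**
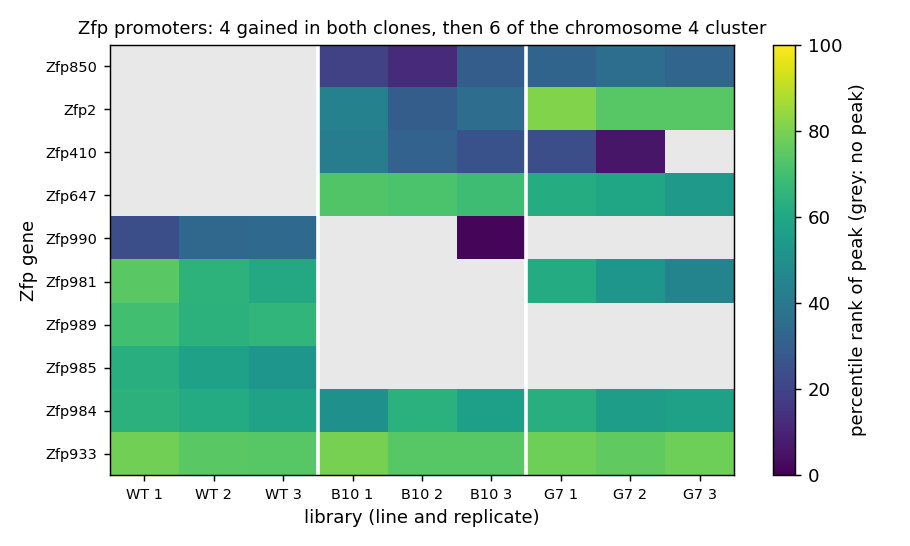
Percentile rank of the peak (colour, 0 to 100, grey where the library has none) at the 4 Zfp promoters gained in both clones and at the 6 promoters of the array on chromosome 4 in genome order, in the 9 libraries. *Zfp989* and *Zfp985* are grey in all 6 KO libraries, *Zfp981* in B10 only, and *Zfp984* and *Zfp933* are coloured throughout.

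Arrays of at least 3 Zfp genes with neighbours within 500 kb numbered 31 and held 220 of the genes and 257 of the regions. In them 9 gains and 4 losses were common to the clones (3.50% and 1.56% of the regions), and of the 407 regions outside them 12 and 8 were so called. Of all consensus regions, 2.93% were gained and 4.37% lost in both. The chromosome 4 array was the only one with more than 1 region lost in both clones, and no array had more than 1 gained. The array from *Zfp160* to *Zfp13* (chr17:21008903-23599487), the largest with 23 genes and 33 regions, had 1 gained and 1 lost, and its 25 regions open in all libraries had a median log2 difference of 0.10 in B10 and 0.07 in G7, against 0.04 and 0.01 for the other regions around it. The array from *Zfp712* to *Zfp273* (chr13:67038596-67827002), with 19 genes and 21 regions, had neither, at 0.05 and 0.06 against 0.07 and 0.05. The array from *Zfp335* to *Zfp334* had no Zfp region gained or lost in both clones, while 12 of the 31 other regions inside it were lost in both.

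In the bodies and flanks, *Zfp521* and *Zfp827* had the most regions, with 16 each, ahead of *Zfp652* and *Zfp704* with 15 and *Zfp608* with 14. Over all classes, promoters included, 182 genes had exactly 1 region. Gained in both clones were an intronic region of *Zfp827* (chr8:79079958-79080550), which encodes a protein known to recruit the NuRD complex to telomeres, with ranks of 62.2, 44.6 and 42.0 in B10 and 69.1 and 37.2 in G7 replicates 1 and 2, and an intronic region of *Zfp277* (chr12:40346236-40346815), with 33.8, 31.0 and 28.3 in B10 and 38.5, 20.6 and 17.8 in G7. A region 3′ of *Zfp474* (chr18:52641256-52641797) ranked 41.6, 36.3 and 51.9 in B10 and 33.6 and 44.9 in G7 replicates 2 and 3. An intronic region of *Zfp521* (chr18:13825131-13825532) ranked 40.4 and 27.2 in B10 replicates 1 and 2 and 34.2, 28.6 and 19.4 in G7. A region of *Zfp52* and 1 shared by *Zfp934* and *Zfp935* completed the 6 named by rank. Of the losses, only an intronic region of *Zfp652* (chr11:95808380-95809007), with ranks of 37.4, 34.4 and 39.4, and 1 of *Zfp536* (chr7:37563056-37563558), with 4.01, 9.68 and 15.8, had a peak in all 3 WT libraries. The others named by rank, in *Zfp341*, *Zfp512*, *Zfp957* and a second site of *Zfp536*, had 2.

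Between the clones, 1 Zfp region was higher in B10 than in G7 (0.693% of all regions tested were) and 2 were lower (0.973% of all). An intronic region of *Zfp638* (chr6:83888725-83889405), a gene with a known part in fat cell differentiation, had a fold enrichment of 9.11, 12.8 and 8.84 in WT and 9.38, 11.2 and 10.0 in B10, and only 4.07, 6.33 and 4.41 in G7. The log2 difference between B10 and G7 was 0.99 ± 0.20 (adjusted p = 0.0354). The *Zfp276* promoter (chr8:123253777-123255443), which is also a promoter of *Vps9d1*, had 11, 12.5 and 11.8 in WT, 7.54, 9.01 and 9.23 in B10 and 11.7 in each G7 library, a difference of −0.53 ± 0.10 (adjusted p = 0.031). The *Zfp532* promoter (chr18:65580308-65582438) had 6.14, 7.92 and 7.58 in WT, 5.99, 6.51 and 5.97 in B10 and 8.78, 9.41 and 9.92 in G7, a difference of −0.68 ± 0.13 (adjusted p = 0.0334). None of the 3 differences passed with B10 replicate 1 left out, nor with any of 5 other libraries left out.

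Few promoters of Zfp genes with known roles passed the test of fold enrichment, and some passed by percentile rank. Of 7 genes linked to fat cell or mesenchymal fate, 6 had a promoter region, with *Zfp467* the exception. None of their 10 fitted regions passed in limma on fold enrichment in either clone (unadjusted p below 0.05 for 0 in B10 and 1 in G7). The main promoter of *Zfp521*, an antagonist of fat cell commitment, had log2 differences of 0.14 in B10 and −0.04 in G7, and that of *Zfp407* of 0.15 and 0.11. In limma on percentile ranks, the main *Zfp521* promoter passed in B10 (3.27 points, adjusted p = 0.0495). A *Zfp395* promoter passed by rank in G7 (−4.06 points, adjusted p = 0.0310). Of 9 genes of imprinting, provirus silencing and pluripotency, 6 had a promoter region and none of the 6 passed in either clone (unadjusted p below 0.05 for 2 in B10 and 1 in G7). *Zfp57* and *Zfp445*, which keep imprints, had differences of 0.10 and 0.20 in B10 and −0.10 and 0.07 in G7, where *Zfp445* passed in B10 with the replicate number as a block (adjusted p = 0.0189). *Zfp809*, which silences retroviral DNA, had 0.09 and 0.04. In limma on percentile ranks, the *Zfp708* promoter passed in B10 (3.3 points, adjusted p = 0.00611). *Zfp42*, also called Rex1 and a marker of pluripotent cells, and *Zfp296* and *Zfp819* had no promoter region. Of 9 widely expressed factors, all had a promoter region, and 1 of the 10 fitted regions was lower in G7, a promoter of *Zfp148* (chr16:33399659-33400760) with a log2 difference of −0.42 (adjusted p = 0.0325) there and −0.22 (adjusted p = 0.159) in B10. In B10 it passed with the replicate number as a block (adjusted p = 0.0387). *Zfp143*, which binds many promoters, ranked at a median of 97.6 and had 0.11 and 0.10. In limma on percentile ranks, *Zfp384* passed in B10 (2.64 points, adjusted p = 0.00197) and G7 (1.37 points, adjusted p = 0.0455). *Zfp318* passed by rank in B10 (3.31 points, adjusted p = 0.0384).

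The genes whose products act with KRAB zinc finger proteins and ATRX kept open promoters. All 20 genes listed had a promoter region, and none of the 23 fitted regions passed in limma in either clone (unadjusted p below 0.05 for 3 in B10 and 2 in G7), where the log2 differences ran from −0.16 to 0.26 in B10 and from −0.25 to 0.24 in G7. *Trim28*, the KRAB co-repressor, had 0.16 (adjusted p = 0.432) and 0.14 (adjusted p = 0.599), and *Setdb1*, the H3K9 methyltransferase, had −0.14 (adjusted p = 0.502) and −0.09 (adjusted p = 0.76).

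Zfp genes with and without the KRAB pattern were set side by side. Of 14 last-exon regions of KRAB genes, 1 was open in all 9 libraries, 5 were gained and 1 lost in both clones, and 21.4% to 35.7% of them had a peak in the WT libraries against 42.9% to 78.6% in the KO libraries. Of 13 last-exon regions of the other genes, 7 were open in all 9 libraries, 1 was gained in both clones, and the shares were 61.5% in each WT library, 76.9% to 84.6% in B10 and 84.6% to 92.3% in G7. Of the 14 and 13 regions, 10 and 5 entered the consensus set through a clone only, so these shares are lower in WT by selection. With a peak in any library sufficing, the KRAB genes had 4 to 5 such regions with a peak in WT and 7 to 12 in the KO libraries, and the others 8 to 10 and 11 to 14. The difference between the sets was not tested. Gained in both clones were 35.7% of the 14 and 7.69% of the 13, against 2.78% of last-exon regions of genes outside the Zfp set and 2.93% of all consensus regions. Lost in both were 7.14% of the 14 and 0% of the 13, against 3.33% and 4.37%. At promoters, 2 of 171 regions of KRAB genes were gained and 2 lost in both clones (1.17% each), and 2 of 159 (1.26%) and 0 in the others. Of promoter regions of genes outside the Zfp set, 1.22% were gained and 1.94% lost in both.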

How the data were processed

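Chromatin accessibility was measured by ATAC-seq in 9 libraries. Reads were aligned to mm10 with Rsubread after Rfastp, and MACS2 (version not given in the sources used here) called peaks in paired-end mode for each replicate separately. The deposited lists give, per peak, a fold enrichment (a ratio), −log10 p- and q-values and a display score made by the authors' peak caller. The score was not used. Peak names mention an input that the methods do not describe. The lowest −log10 q in the deposited lists was 1.30 to 1.31. The study tested read counts, which peak lists do not hold.

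Genes, transcripts and proteins were those of GENCODE M21. Overlap meant at least 1 bp. Presence was compared by the rule in the text. Log2 fold enrichment was tested with limma 3.58.1 (trend) in R 4.3.3, without a block, over regions open in all 9 libraries, at an adjusted p of 0.05. The same fit was run on simulated data with independent noise in each library, which lack the shared deviations described next and so cannot check their effect. Libraries of the same replicate number deviated together in each of 9 pairs of libraries from different lines (correlation of deviations from the line means 0.241 to 0.59, against −0.48 to 0.246 for different numbers), so the number was also used as a block. Members, gene lists and tests were chosen with earlier results of these data known. Named regions were the regions called in both clones per class (at most 6 a direction), the 5 last-exon regions of highest rank, the 3 largest differences between clones in each direction, and promoters of 3 gene lists.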

Additional observations from a re-analysis of the deposited data

Results flagged for a closer look

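Regions whose change from WT differed between the clones, by the test of B10 against G7 itself, were 3. The intronic region of *Zfp638* had a log2 difference between B10 and G7 of 0.99, with a lower fold enrichment in G7 (−0.97 ± 0.20, adjusted p = 0.0309) and 0.03 ± 0.20 in B10 against WT. The *Zfp276* promoter had −0.53, with −0.44 ± 0.10 in B10 (adjusted p = 0.0305) and 0.09 ± 0.10 in G7. The *Zfp532* promoter had −0.68, with −0.20 ± 0.13 in B10 and 0.48 ± 0.13 in G7 (adjusted p = 0.0921, and 0.035 with the replicate number as a block). Regions within 5 Mb had medians between 0.03 and 0.06 in both clones. Each KO line is 1 clone, and the part of clone history was not tested.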

How the results depend on the processing

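Counts of Zfp regions were recomputed under other settings, and stayed within 1.5 times of the values above except as follows, where the cause was not tested. Restricting the lists to a −log10 q of 5 or more left 13 gains in both clones, 3 of them in last exons, and 0 last-exon losses. Of all consensus regions at that setting, 2.72% were gained and 4.76% lost in both clones. Testing percentile ranks in place of fold enrichment gave 85 higher and 21 lower in B10, 39 and 19 in G7, 28 and 6 in both, and 31 between the clones, and turned the direction for the *Zfp617* promoter (−0.28 points) and the *Zfp276* promoter (1.13 points) in B10. For the rank fit and the other fits below except the block, no share over all regions tested is given. A rise at Zfp regions and a rise over all regions therefore cannot be told apart there. Ranks also added calls in G7 at *Zfp771*, *Zfp276* and *Zfp532*, and those given above for promoters of the gene lists. Admitting regions with 2 peaks in every line gave 18 higher in B10. With the replicate block there were 40 higher and 15 lower in B10, 23 and 11 in G7, 11 and 5 in both and 8 between the clones, and among the regions named one by one it changed only the calls against WT given beside *Zfp771*, *Zfp445*, *Zfp148* and *Zfp532*. Counts over all regions tested rose with the block too, as given above, with 1062 higher and 1250 lower in B10 against G7. With every merged region counted, a setting chosen after seeing the data, the mean number of Zfp last-exon regions with a peak was 13.3 in WT and 22 in each clone. Leaving replicate 1 out of every line gave 25 higher and 11 lower in B10 and 8 higher in both. Leaving out replicate 2 gave 29 gained in B10, 20 gained and 13 lost in G7, 7 gained in both, 2 last-exon gains and 0 last-exon losses. Leaving out replicate 3 gave 13 lost in G7, 2 last-exon gains and 0 last-exon losses. After either, limma called 0 Zfp regions higher, lower or different between the clones.

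With 1 library left out at a time, gains in B10 ran from 27 (without B10 replicate 1 or 2) to 66, in G7 from 18 (without G7 replicate 2) to 53, and in both from 11 (without B10 or G7 replicate 2) to 30. Losses ran from 15 (without WT replicate 3) to 36, from 11 (the same) to 31, and from 7 (without any 1 WT library) to 16. Of all consensus regions, 1.95% to 5.83% were then gained and 2.23% to 5.22% lost in both clones, and shares for 1 clone alone are not given. Last-exon gains in both ran from 3 (without B10 replicate 2 or 3 or G7 replicate 3) to 7 (without WT replicate 3), and last-exon losses from 0 to 1. As a share, 11.5% to 26.9% of the last-exon members were gained in both, against 1.95% to 5.83% of all regions. In limma, higher regions numbered 4 (without B10 replicate 2) to 18 (without WT replicate 1) in B10, 3 (without WT replicate 3) to 9 in G7 and 3 to 5 in both. Lower ones numbered 0 (without WT replicate 3) to 5, 3 to 7 and 0 to 2, and differences between the clones 0 (without any 1 of 6 of the 9 libraries) to 3. A clone left with 2 libraries must have a peak in each to be called. No read depth could be set against these counts.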
